A study of Mus musculus with 9 samples.

Results

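Mouse olfactory sensory neurons that express the odorant receptor Olfr73 were compared with neurons that express Olfr160, across all genes whose symbol does not start with Olfr. The odorant receptor genes themselves were set aside because the cells were sorted by the receptor they express. The deposited table holds 55291 genes, of which 1408 have Olfr symbols and 53883 are members of the comparison. Of these, 15708 passed a filter on low counts and were tested. The comparison rests on 6 of the 9 libraries of the series. There were 3 libraries of Olfr73-IRES-GFP neurons and 3 of Olfr160-IRES-mCherry neurons. The other 3, of Olfr1507-IRES-GFP neurons, entered the fit to estimate the spread between libraries and serve below as a further level for each gene. In each genotype an internal ribosome entry site joins a fluorescent reporter to the receptor transcript, so that the neurons that chose the receptor glow. Main olfactory epithelium was dissociated with papain, and cells with strong reporter signal and little DAPI were sorted for polyadenylated RNA. The labels give neither strain, age, sex nor zone, and they do not say whether libraries came from separate animals. The p-values therefore measure the spread between these libraries, which may be technical. Receptor, reporter colour and mouse line change together between the groups and cannot be told apart. The series' design text speaks of duplicates, whereas 3 libraries per group were used here.

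A mature olfactory sensory neuron expresses 1 odorant receptor allele and sends its axon to a fixed place in the olfactory bulb. The position of the cell body, along an axis from the dorsal to the ventral epithelium, goes with its receptor and sets the dorsoventral target through repulsive cues such as the receptors Robo2 and Nrp2. Receptor identity also sets the level of cyclic AMP signalling, which tunes guidance molecules such as Nrp1 and Plxna1 along the anterior-posterior axis, while neuronal activity tunes adhesion molecules that sort axons into single glomeruli. Olfr73 is known as a receptor for eugenol and Olfr160 as a receptor for acetophenone, and both are known as dorsal receptors. The comparison therefore asks which genes differ between neurons of different receptor identity when the zone is taken to be roughly constant. That is an assumption, because the labels give no zone, and several zone genes differed between the groups, as described below.

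Nqo1, Acsm4 and Robo2 mark dorsal neurons and Ncam2 marks ventral neurons. The 250 bases upstream of their start sites are printed because these genes gave different answers between the groups, as described below. The sequences are from RefSeq on GRCm38.p6 and were searched on both strands for the EBF motif TCCCNNGGGA, the NFI motif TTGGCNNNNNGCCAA and the shorter NFI sequence TTGGCA, which does not require the longer motif around it. EBF and NFI are transcription factor families at work in olfactory neurons. Capitals mark the matches. Of 32851 promoters of this length, 0.779% held the EBF motif, 0.0365% the NFI motif and 12.3% the shorter NFI sequence.
Acsm4, chr7:119689776-119690025, plus strand: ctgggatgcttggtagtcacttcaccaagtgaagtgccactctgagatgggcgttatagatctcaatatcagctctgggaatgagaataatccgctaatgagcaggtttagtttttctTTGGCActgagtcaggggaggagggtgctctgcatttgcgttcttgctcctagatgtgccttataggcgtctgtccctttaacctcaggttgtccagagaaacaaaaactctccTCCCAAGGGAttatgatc
Nqo1, chr8:107403206-107403455, minus strand: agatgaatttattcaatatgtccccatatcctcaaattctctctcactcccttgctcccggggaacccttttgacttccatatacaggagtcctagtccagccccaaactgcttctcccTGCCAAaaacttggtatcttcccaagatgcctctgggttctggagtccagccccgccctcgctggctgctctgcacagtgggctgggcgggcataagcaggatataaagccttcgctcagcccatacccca
Robo2, chr16:74411826-74412075, minus strand: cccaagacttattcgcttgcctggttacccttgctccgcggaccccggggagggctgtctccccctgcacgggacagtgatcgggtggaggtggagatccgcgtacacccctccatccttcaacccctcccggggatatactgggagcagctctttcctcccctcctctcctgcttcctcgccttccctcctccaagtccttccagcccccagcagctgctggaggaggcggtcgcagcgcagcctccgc
Ncam2, chr16:81200447-81200696, plus strand: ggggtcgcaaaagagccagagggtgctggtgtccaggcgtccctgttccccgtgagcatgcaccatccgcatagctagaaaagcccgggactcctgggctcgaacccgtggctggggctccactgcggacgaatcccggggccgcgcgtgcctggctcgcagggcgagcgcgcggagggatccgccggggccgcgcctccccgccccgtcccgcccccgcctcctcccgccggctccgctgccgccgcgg
The Acsm4 window held an EBF match near the start site and the shorter NFI sequence further upstream. The Nqo1 window held the shorter NFI sequence on the opposite strand, and the windows of Robo2 and Ncam2 held none of the 3. Robo2 has other annotated starts that are not shown.

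The tagged receptor matched the label of each of the 6 libraries, although the Olfr160 libraries varied in how much of it they held. Levels are given as normalised CPM, which are counts scaled to the size of the library and to a TMM factor. The Olfr73 gene read 917, 948 and 747 CPM in its own libraries and at most 1.01 CPM in the Olfr160 libraries. The Olfr160 gene read 151, 384 and 735 CPM in its own libraries 1, 2 and 3, and 0.572, 5.57 and 0.28 CPM in the Olfr73 libraries. Olfr160 made up 2.08%, 4.54% and 10.1% of all Olfr counts in its libraries, against 22.8%, 23.6% and 32.8% for Olfr73 in its own. All Olfr genes together took 0.239% to 0.43% of the counts in the Olfr73 libraries and 0.789% to 0.926% in the Olfr160 libraries. Of the 1408 Olfr genes, 566 were at 0 counts in the Olfr73 group and 291 in the Olfr160 group. The part of neurons with other receptors in the differences below was not tested. The defining neuronal markers were abundant in every library. Markers of other cell types of the epithelium were nevertheless higher in the Olfr160 group. The 29 markers of sustentacular and gland cells took 0.549% to 1.05% of the counts in the Olfr73 group against 3.26% to 6.87% in the Olfr160 group, none being at 0 counts in either group. Of the 27 tested, 19 passed the threshold used below, all higher in Olfr160, and 11 did so with each library left out in turn; 12 passed without Olfr73 library 2, without Olfr73 library 3 and without Olfr160 library 2. Markers of basal cells and progenitors took 0.0221% to 0.0283% against 0.06% to 0.112%, with 2 of 16 markers, Neurog1 among them, at 0 counts in the Olfr73 group. The share was 0.0216% to 0.0525% against 0.118% to 0.209% for microvillar and brush cells, and 0.135% to 0.26% against 0.505% to 1.36% for respiratory epithelium, where Scgb1a1 was at 0 counts in both groups. It was 0.00905% to 0.0122% against 0.0306% to 0.0904% for immune cells, and 0.0145% to 0.0365% against 0.0623% to 0.115% for glia, stroma and vessels, where Cdh5 was at 0 counts in the Olfr73 group. It was 0.000618% to 0.00685% against 0.00936% to 0.0643% for red blood cells, and 0.0144% to 0.0189% against 0.0234% to 0.0499% for atypical chemosensory neurons, where 4 of 18 markers (Ms4a4c, Vmn1r1, Taar4 and Taar5) were at 0 counts in the Olfr73 group and Vmn1r1 in the Olfr160 group as well. Markers of immature neurons went the other way in counts, at 0.506% to 0.544% against 0.388% to 0.5%, whereas in TPM the Olfr160 share was 1.22 times the Olfr73 share. None of these 9 shares of counts overlapped between the groups. Each gave p = 0.1 in a two-sided exact permutation test, both before and after Benjamini-Hochberg adjustment over the 9 lists, which is the smallest p that 3 libraries against 3 can give. In such sorted pools, fewer cells of a type and less RNA per cell cannot be told apart. The part of these markers in the differences below was not tested.

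**Figure D1:**
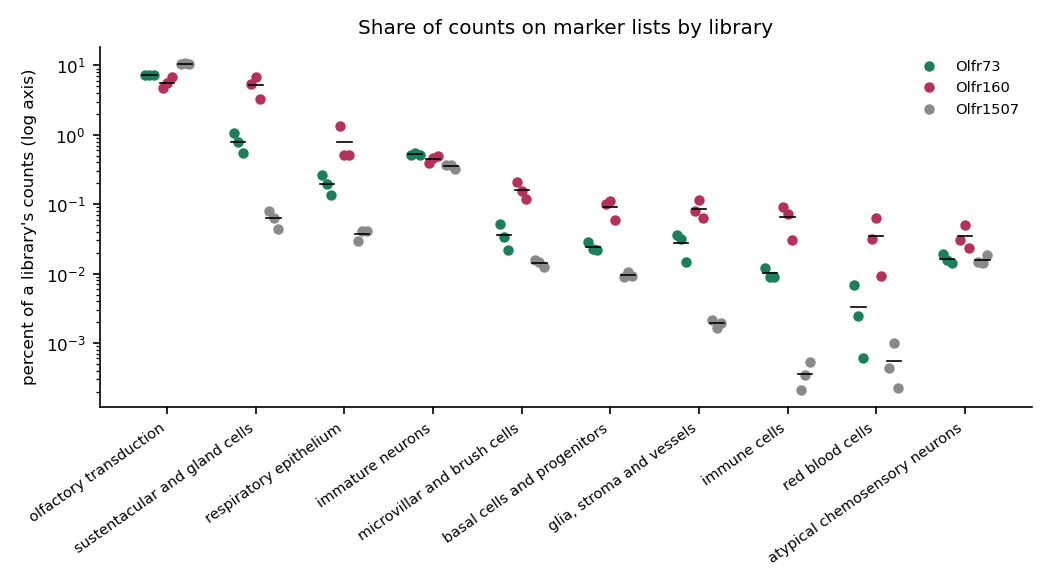
Share of each library's counts, in percent on a log axis, on the olfactory transduction list and on 9 cell type marker lists. Points are libraries (3 for each receptor) and lines are group means; in the sustentacular and gland list the Olfr160 libraries sit at 3.26% to 6.87% and the Olfr73 libraries at 0.549% to 1.05%.

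Between Olfr73 and Olfr160 neurons, 2834 of the 15708 tested genes differed, which is 18.0% of them, by edgeR's quasi-likelihood test at a Benjamini-Hochberg adjusted p below 0.05. Of these, 1221 genes were higher in Olfr73 (7.77% of those tested) and 1613 were higher in Olfr160 (10.3%). The sizes of the changes were unequal. The genes higher in Olfr73 had a median log2 fold change of 0.73, and 266 of them differed at least 2-fold, 34 at least 4-fold and 14 at least 8-fold. The genes higher in Olfr160 had a median of -2.01, and 1325 of them differed at least 2-fold, 816 at least 4-fold and 325 at least 8-fold. Fold changes are Olfr73 over Olfr160 throughout, so that a negative log2 value means higher in Olfr160. Over all tested genes the median was 0.0128, and in 41.2% of them the 3 libraries of one group did not overlap with the 3 of the other (17.9% higher in Olfr73 and 23.3% higher in Olfr160). The list counts below stand beside the shares of 7.77% and 10.3% over all tested genes. List counts under another setting are to be read against the totals of that setting, given here as higher in Olfr73 and higher in Olfr160. Of 15708 genes they were 185 and 3501 with the transduction-list scaling described below. They were 1387 and 2537 with DESeq2 and 1541 and 2684 with limma-voom. With only the 6 libraries compared they were 657 and 1305. Without Olfr73 libraries 1, 2 and 3 in turn they were 1001 and 1579, 734 and 1350, and 642 and 1154. Without Olfr160 library 3 they were 1457 and 1512.

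The genes higher in Olfr160 mostly read low in the Olfr1507 neurons as well. Of those 1613 genes, 985 had an Olfr1507 mean below both other groups, and 847 had one under 10% of the Olfr160 mean. For 445 of them the Olfr1507 mean was at least 50% of the Olfr160 mean. Of the 1221 genes higher in Olfr73, 538 had an Olfr1507 mean above both other groups, 481 between them and 202 below both. Every group in these counts was placed by its mean over 3 libraries, with no test of the Olfr1507 level.

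Most of the 2834 calls depended on single libraries, and many depended on the scaling. Without Olfr160 library 1 the count of called genes was 1353 (571 higher in Olfr73, 782 higher in Olfr160), and without Olfr160 library 2 it was 937 (318 and 619). Without Olfr73 library 3 it was 1796, and the count higher in Olfr73 was 642 without that library and 734 without Olfr73 library 2. A set of 887 genes, 298 higher in Olfr73 and 589 higher in Olfr160, was called in the same direction with each of the 6 libraries left out in turn. Below, a gene is called stable to leaving out libraries where it is among them. Each of these fits kept the 3 Olfr1507 libraries, which correlated with each other at 0.9751 to 0.9767 on log2 CPM. Within Olfr73 the correlations were 0.9057 to 0.9208, and within Olfr160 they were 0.952 to 0.9601. With only the 6 libraries compared, 1837 of the 2834 calls remained, which the word stable does not cover. Scaling moved the balance of the calls: 43.1% of them were higher in Olfr73 with TMM scaling, 33.7% with RLE size factors, 31.8% with library size alone and 5.02% when libraries were scaled to the summed counts of the olfactory transduction list. That last scaling moved the median of all genes to -0.51, and it is given below beside the lists whose direction depends on it. The transduction list took 7.33% to 7.39% of the counts in the Olfr73 libraries and 4.73%, 5.55% and 6.71% in Olfr160 libraries 1, 2 and 3.

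**Figure D2:**
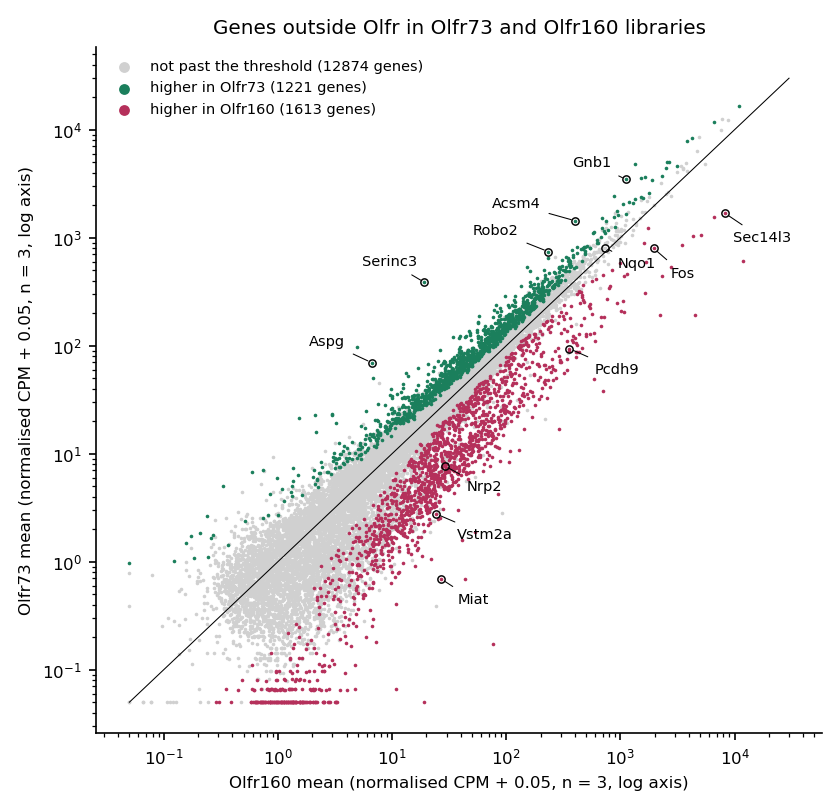
Mean normalised CPM of each tested gene outside Olfr in the Olfr160 libraries (x) and the Olfr73 libraries (y), n = 3 each, on log axes with a small constant added; the line marks equal levels. Green points are the 1221 genes higher in Olfr73 and red points the 1613 higher in Olfr160; the red cloud reaches further from the line than the green one.

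Among 5 tested dorsal zone genes, 2 were higher in Olfr73, 1 was higher in Olfr160 and 2 did not pass. The list median was 0.15, and -0.27 with transduction-list scaling, under which the counts were the same. Acsm4, an acyl-CoA synthetase of the dorsal epithelium (chr7:119690026-119714565), read 1201, 1521 and 1580 CPM in Olfr73 libraries 1, 2 and 3 and 273, 409.5 and 525 CPM in Olfr160 libraries 1, 2 and 3. Every Olfr73 library was above every Olfr160 library (log2 fold change 1.83, SE 0.342, adjusted p = 0.00941), and the Olfr1507 mean was 5.74 CPM. Robo2, the receptor that repels dorsal axons from Slit ligands (chr16:73891839-74411825), read 693, 789 and 752 CPM in the Olfr73 group and 153, 232 and 314 CPM in the Olfr160 group. The groups did not overlap (log2 fold change 1.68, SE 0.324, adjusted p = 0.0102), and the Olfr1507 mean was 11.5 CPM. Both genes were stable to leaving out libraries and passed with transduction-list scaling, with log2 fold changes of 1.38 for Acsm4 and 1.23 for Robo2. Within the Olfr160 group both read lowest in library 1 and highest in library 3.

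Nqo1 differed from the other dorsal markers. This quinone reductase, the standard marker of dorsal neurons (chr8:107388225-107403206), read 915, 571 and 946 CPM in the Olfr73 group and 449, 672 and 1071 CPM in the Olfr160 group. The groups overlapped (log2 fold change 0.15, SE 0.448, adjusted p = 0.846), while the Olfr1507 mean was 4.19 CPM. The sign of its difference was not settled: the log2 fold change was -0.27 with transduction-list scaling and -0.11 without Olfr160 library 1. The Nqo1 promoter was printed above beside that of Acsm4, which differed. Cd36, a fatty acid translocase found in a subset of dorsal neurons, went the opposite way to Acsm4, with 133, 115 and 103 CPM in the Olfr73 group and 453, 460.5 and 297 CPM in the Olfr160 group (log2 fold change -1.79, SE 0.371, adjusted p = 0.0132). No library overlapped, and the call was lost without Olfr160 library 2 (adjusted p = 0.054). Sema3f, a ligand that repels Nrp2 axons, did not pass, and Msx1 was not tested.

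All 5 genes of the ventral zone list were higher in Olfr160, and 3 of them passed without Olfr73 library 1, Olfr73 library 3, Olfr160 library 1 or Olfr160 library 2, or with only the 6 libraries compared. Nrp2, the semaphorin receptor of ventral axons (chr1:62703285-62818695), read 4.49, 12.03 and 6.24 CPM in the Olfr73 group and 27.4, 35.01 and 25.4 CPM in the Olfr160 group. Every Olfr160 library was above every Olfr73 library (log2 fold change -1.95, SE 0.307, adjusted p = 0.00502), and the Olfr1507 mean was higher than either, at 134 CPM. Ncam2, an adhesion molecule of ventral axons, read 6.08, 9.97 and 3.03 CPM in the Olfr73 group and 14.1, 24.3 and 14.4 CPM in the Olfr160 group (log2 fold change -1.47, SE 0.39, adjusted p = 0.0323), with an Olfr1507 mean of 33.4 CPM. The Ncam2 call was lost in 4 of the 6 fits with a library left out, those without Olfr73 library 1 (adjusted p = 0.0696), Olfr73 library 3 (0.0533), Olfr160 library 1 (0.0551) and Olfr160 library 2 (0.121).

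The nuclear factor I genes, which encode transcription factors tied to the ventral programme, moved with Nrp2. Nfia read 18.4, 20.9 and 16.9 CPM in the Olfr73 group and 51.1, 57.6 and 39.6 CPM in the Olfr160 group (log2 fold change -1.40, SE 0.166, adjusted p = 0.00249). Nfib read 40.6, 48.7 and 40.5 CPM in the Olfr73 group and 119, 126 and 91.1 CPM in the Olfr160 group (log2 fold change -1.37, SE 0.178, adjusted p = 0.00282). In both genes the groups stood apart and the Olfr1507 mean was above both, at 79.2 CPM for Nfia and 181 CPM for Nfib. Nfix read 6.61, 12.4 and 9.83 CPM in the Olfr73 group and 21, 21.7 and 13.9 CPM in the Olfr160 group (log2 fold change -0.97, adjusted p = 0.0304), and its call was lost without Olfr73 library 1 (adjusted p = 0.0575), Olfr73 library 3 (0.0661), Olfr160 library 1 (0.093) or Olfr160 library 2 (0.112). Nrp2, Nfia and Nfib were stable to leaving out libraries, and all 5 genes passed in the same direction with transduction-list scaling. Olfr160 made up 2.08% to 10.1% of the Olfr counts in its own libraries, and the part of neurons with other receptors in these differences was not tested. The summed level of the 5 genes was 0.00805% to 0.0107% of the counts in the Olfr73 libraries, 0.02% to 0.0289% in the Olfr160 libraries and on average 0.038% in the Olfr1507 libraries. The plot of the zone genes shows this order in Nrp2, Ncam2, Nfia and Nfib, and a different one in Cd36 and Meis1.

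**Figure D3:**
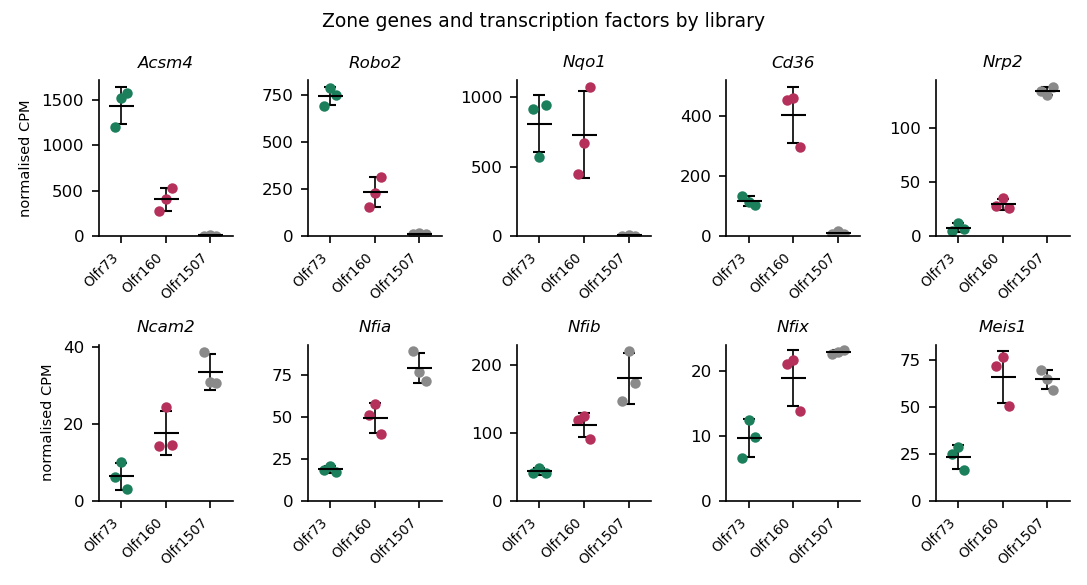
Normalised CPM of 10 zone genes and transcription factors in every library of the Olfr73, Olfr160 and Olfr1507 groups; points are libraries, long lines are means and error bars are SD (n = 3). Acsm4 and Robo2 are highest in Olfr73, Nqo1 overlaps between Olfr73 and Olfr160, and Nrp2, Nfia and Nfib climb from Olfr73 through Olfr160 to Olfr1507.

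Of 38 tested transcription factors from a list for olfactory neurons, 8 were higher in Olfr73 and 9 were higher in Olfr160, with a median log2 fold change of -0.17 over the list. Without Olfr73 library 3 the counts were 4 and 5, without Olfr160 library 1 they were 4 and 3, without Olfr160 library 2 they were 3 and 3, and with only the 6 libraries compared they were 4 and 7. Meis1, a homeodomain factor, read 25.1, 28.8 and 16.2 CPM in the Olfr73 group and 71.8, 76.6 and 50.5 CPM in the Olfr160 group (log2 fold change -1.51, SE 0.226, adjusted p = 0.00437). The groups did not overlap, and the Olfr1507 mean of 64.9 CPM lay near the Olfr160 level. Factors higher in Olfr73 were modest in size. Pbx3, a homeodomain partner of Meis proteins, read 46.1, 52.6 and 52.3 CPM in the Olfr73 group and 27.4, 30.4 and 31.5 CPM in the Olfr160 group (log2 fold change 0.76, adjusted p = 0.00476). Zeb1, a zinc-finger repressor, and Cbx8, a Polycomb protein, had log2 fold changes of 0.75 (adjusted p = 0.00986) and 0.77 (adjusted p = 0.0116). Meis1, Nfia, Nfib, Pbx3, Zeb1 and Cbx8 were the 6 factors stable to leaving out libraries. With transduction-list scaling 15 factors passed, all higher in Olfr160, where all 15708 tested genes gave 185 higher in Olfr73 and 3501 higher in Olfr160. Under that scaling Pbx3 (adjusted p = 0.263), Zeb1 (0.235) and Cbx8 (0.119) no longer passed. Ebf2, a member of the EBF family, passed at 0.54 (adjusted p = 0.0473) and kept that call in 1 of the 6 fits with a library left out, the one without Olfr160 library 3; its highest adjusted p was 0.118. Tshz1, a zinc-finger factor, and Sp8, a factor of the Sp family, were higher in Olfr160 at -1.30 and -1.68, and both calls were lost without Olfr160 library 1 (adjusted p = 0.0565 and 0.0515) or library 2 (0.0879 and 0.0879).

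Of 20 tested genes for guidance along the anterior-posterior axis, 3 were higher in Olfr73 and 3 were higher in Olfr160 (median -0.37). The counts were 2 and 8 with transduction-list scaling, 3 and 2 with only the 6 libraries compared, 3 and 6 without Olfr73 library 1, 1 and 1 without Olfr160 library 2 and 5 and 2 without Olfr160 library 3. Plxna1, the plexin that partners Nrp1 in semaphorin signalling (chr6:89316314-89362620), read 302, 408 and 353 CPM in Olfr73 libraries 1, 2 and 3 and 107, 145 and 154 CPM in Olfr160 libraries 1, 2 and 3. Its lowest Olfr73 library was above its highest Olfr160 library (log2 fold change 1.39, SE 0.155, adjusted p = 0.00229), and the Olfr1507 mean was 41.6 CPM. It was stable to leaving out libraries and passed with transduction-list scaling at 0.90. Plxna4, another plexin of the same family, read 204, 159.8 and 213 CPM in the Olfr73 group and 59.1, 85.5 and 119.7 CPM in the Olfr160 group (log2 fold change 1.13, adjusted p = 0.0117), and this call was lost without Olfr160 library 2 (adjusted p = 0.0551). Sema6a, a membrane semaphorin, passed at 0.88 (adjusted p = 0.0172) but not without Olfr160 library 1 (0.0624) or library 2 (0.0763). Nrp1, the semaphorin receptor that rises with cyclic AMP, read 148, 176 and 167 CPM in the Olfr73 group and 83.5, 95.1 and 166 CPM in the Olfr160 group. Olfr160 library 3 lay within the Olfr73 range, and the difference did not pass (log2 fold change 0.51, adjusted p = 0.199). Sema3a, its ligand, read 26.1, 24.6 and 21.1 CPM in the Olfr73 group and 24.03, 35.98 and 24.1 CPM in the Olfr160 group, with overlapping groups (log2 fold change -0.23, adjusted p = 0.43). Gnas, the stimulatory G protein subunit, read 8.19, 8.62 and 4.33 CPM in the Olfr73 group and 45.4, 35.6 and 21.4 CPM in the Olfr160 group (log2 fold change -2.27, adjusted p = 0.00608), at a locus of overlapping transcripts where counting may split reads. Gap43, a growth cone protein, was higher in Olfr160 at -0.79 (adjusted p = 0.0495), a call kept in 1 of the 6 fits with a library left out, the one without Olfr73 library 1 (0.0335), with adjusted p up to 0.125 in the others. Dcc, the netrin receptor, had 1 count over the Olfr73 group against 131 over the Olfr160 group, a ratio of 126 with a 95% counting interval of 22.3 to 5020. Its call was lost without Olfr160 library 2 (adjusted p = 0.0598).

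Of 55 tested genes for local axon sorting and adhesion, 8 were higher in Olfr73 and 6 were higher in Olfr160 (median -0.15), where all tested genes gave 7.77% and 10.3%. The counts were 6 and 3 without Olfr160 library 1, 3 and 3 without Olfr160 library 2 and 13 and 6 without Olfr160 library 3, and they were 11 and 12 with DESeq2, 11 and 17 with limma-voom and 7 and 8 with only the 6 libraries compared. Homophilic cell adhesion molecules of the protocadherin family stood on both sides. Pcdh19 (chrX:133582860-133688987) read 43.02, 47.2 and 75.96 CPM in the Olfr73 group and 12.7, 15.8 and 11.1 CPM in the Olfr160 group (log2 fold change 2.07, SE 0.244, adjusted p = 0.00246). All 3 Olfr73 libraries were above all Olfr160 libraries, and the Olfr1507 mean of 53.3 CPM was close to the Olfr73 level. Pcdh9 (chr14:93013410-93890679) read 95.5, 106 and 80.1 CPM in the Olfr73 group and 352, 249 and 472 CPM in the Olfr160 group (log2 fold change -1.93, SE 0.308, adjusted p = 0.00527). It was higher in every Olfr160 library, and the Olfr1507 mean was 7.21 CPM. Pcdh10, a protocadherin known to follow neuronal activity, passed at 1.55 (adjusted p = 0.0194) but not without Olfr73 library 2 (0.0502), Olfr160 library 1 (0.0643) or Olfr160 library 2 (0.0814). Pcdh17, of the same family, had a log2 fold change of -0.47 and did not pass (adjusted p = 0.072).

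Dscaml1, an immunoglobulin adhesion molecule, read 16.9, 16.1 and 20.2 CPM in the Olfr73 group and 7.95, 8.89 and 8.85 CPM in the Olfr160 group (log2 fold change 1.05, adjusted p = 0.00561). Its groups did not overlap, but it did not pass with transduction-list scaling (adjusted p = 0.108). Adgrl1, a latrophilin that binds teneurins, was higher in Olfr73 at 1.05 (adjusted p = 0.0105). Tenm1, a teneurin, had 0 counts in the 3 Olfr73 libraries and 105 counts in the 3 Olfr160 libraries, which is at least 33.7-fold higher in Olfr160 when 3 counts over the group are taken as the floor. Epha3, a receptor for ephrin-A ligands, read 1.497, 1.26 and 0.839 CPM in the Olfr73 group and 6.501, 8.37 and 5.38 CPM in the Olfr160 group (log2 fold change -2.49, adjusted p = 0.00741). Pcdh19, Pcdh9, Dscaml1, Adgrl1, Tenm1 and Epha3 were the 6 members of the list that were stable to leaving out libraries. With transduction-list scaling 4 members were higher in Olfr73 and 14 in Olfr160, where all 15708 tested genes gave 185 and 3501.

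The classic pair of ephrin genes gave no stable difference. Epha5, an ephrin-A receptor, read 40.5, 83.8 and 81.04 CPM in the Olfr73 group and 22.1, 29.5 and 33.1 CPM in the Olfr160 group (log2 fold change 1.28, adjusted p = 0.0347), and its call was lost without Olfr73 library 2 (adjusted p = 0.0918), Olfr73 library 3 (0.0845), Olfr160 library 1 (0.113) or Olfr160 library 2 (0.103). Efna5, a ligand for it, did not pass (log2 fold change -0.15, adjusted p = 0.807), and its sign changed without Olfr73 library 2 (0.072) and without Olfr160 library 3 (0.15). Kirrel2, an adhesion molecule that rises with activity, read 1437, 3257 and 1804 CPM in the Olfr73 group and 1162, 1772 and 2151 CPM in the Olfr160 group (log2 fold change 0.35, adjusted p = 0.639). Kirrel3, its counterpart that falls with activity, read 135, 76.3 and 81.9 CPM in the Olfr73 group and 64.96, 76.2 and 128 CPM in the Olfr160 group (log2 fold change 0.12, adjusted p = 0.798). Both overlapped between the groups, and both changed sign with transduction-list scaling, to -0.11 for Kirrel2 and -0.32 for Kirrel3. Kirrel2 also changed sign without Olfr73 library 2 (-0.097), and Kirrel3 without Olfr73 library 1 (-0.18) or Olfr160 library 1 (-0.07). Cntn4, a contactin, read 1668, 1870 and 1531 CPM in the Olfr73 group and 498, 914 and 1302 CPM in the Olfr160 group, without overlap but also without passing (log2 fold change 0.90, adjusted p = 0.0633).

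Of 16 tested genes linked to olfactory activity, 1 was higher in Olfr73 and 3 were higher in Olfr160 (median -0.33), and 2 passed, both higher in Olfr160, without Olfr160 library 1 or without Olfr160 library 2. With limma-voom the counts were 3 and 6. Calb2, the calcium-binding protein calretinin, read 239.5, 160.2 and 167 CPM in the Olfr73 group and 328, 305 and 306 CPM in the Olfr160 group (log2 fold change -0.73, adjusted p = 0.0202). The groups did not overlap, and both lay far below the Olfr1507 mean of 5771 CPM. The call was lost without Olfr73 library 2 (adjusted p = 0.0509), Olfr73 library 3 (0.0662), Olfr160 library 1 (0.0512) or Olfr160 library 2 (0.0657). Cidea, a lipid droplet protein, read 11.4, 12.7 and 6.48 CPM in the Olfr73 group and 29.1, 25.03 and 25.6 CPM in the Olfr160 group (log2 fold change -1.38, adjusted p = 0.00445), with an Olfr1507 mean of 319.7 CPM. The groups stood apart and the call was stable to leaving out libraries. S100a5, a calcium-binding protein that rises with odor stimulation, read 139, 457 and 378 CPM in the Olfr73 group and 146, 207 and 264 CPM in the Olfr160 group, with Olfr73 library 1 below the whole Olfr160 group, and did not pass (log2 fold change 0.66, adjusted p = 0.332).

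Olfactory transduction genes were more often called higher in Olfr73 than in Olfr160, but this balance changed with the libraries in the fit and with the scaling. Of 26 tested members, 8 were higher in Olfr73 and 2 were higher in Olfr160, with a median of 0.49. With transduction-list scaling the counts were 4 and 5 and the median was 0.038. That scaling makes the summed counts of this same list equal between libraries. It removes a shift shared by the members, so it cannot show whether the list as a whole differs. For a single member it gives the change relative to the list. With only the 6 libraries compared, without Olfr1507, the counts were 2 and 3. The count higher in Olfr73 was 5 without Olfr73 library 1, 3 without Olfr73 library 2 or 3, 5 without Olfr160 library 1, 2 without Olfr160 library 2 and 16 without Olfr160 library 3. Gnb1, a G protein beta subunit, read 3429, 3362 and 3594 CPM in Olfr73 libraries 1, 2 and 3 and 768, 1144 and 1458 CPM in Olfr160 libraries 1, 2 and 3. The 3 Olfr73 libraries were nearly equal and each was above every Olfr160 library (log2 fold change 1.62, SE 0.219, adjusted p = 0.00308). Slc12a2, the chloride importer that loads olfactory cilia, read 300.1, 252 and 305 CPM in the Olfr73 group and 87.3, 133 and 138 CPM in the Olfr160 group (log2 fold change 1.26, SE 0.176, adjusted p = 0.00349). Both were stable to leaving out libraries, and both passed with transduction-list scaling, at 1.17 and 0.79. Ugt2a1, a glucuronosyltransferase that is also known from supporting cells, was the third stable member and went the other way, at 1389, 1118 and 699.6 CPM in the Olfr73 group and 5879, 5783 and 3585 CPM in the Olfr160 group (log2 fold change -2.25, adjusted p = 0.00741). Its Olfr1507 mean was 88.1 CPM, and its order over the 3 groups was that of the sustentacular and gland markers. Rgs2, a regulator of G protein signalling, was also higher in Olfr160 (log2 fold change -2.80, adjusted p = 0.0126), a call lost without Olfr160 library 2 (adjusted p = 0.056).

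Other members of the pathway had less stable calls. Omp, the marker of mature olfactory neurons, read 15250, 17510 and 16700 CPM in the Olfr73 group and 8344, 11200 and 13260 CPM in the Olfr160 group (log2 fold change 0.59, adjusted p = 0.0435). Although the groups did not overlap, the Omp call was kept only without Olfr160 library 3, with adjusted p between 0.0551 (without Olfr160 library 1) and 0.125 (without Olfr160 library 2) when any other 1 of the 6 was left out, and it did not pass with transduction-list scaling (adjusted p = 0.27). Gnal, the olfactory G protein alpha subunit, was higher in Olfr73 at 0.83 (adjusted p = 0.0342), and the channel subunits Cnga2 and Cnga4 at 0.58 (0.0481) and 0.77 (0.0198). The Gnal call was lost without Olfr160 library 2 (adjusted p = 0.113) or any 1 of the Olfr73 libraries (0.0637, 0.0666 and 0.0786), and the Cnga4 call without Olfr73 library 2 (0.0528) or Olfr160 library 2 (0.0798). The Cnga2 call was kept only without Olfr160 library 3, with adjusted p up to 0.155 without any other 1 of the 6 libraries. Adcy3, the cyclase that makes cyclic AMP in the cilia, read 586, 673 and 561 CPM in the Olfr73 group and 344, 503 and 634 CPM in the Olfr160 group, with overlapping groups (log2 fold change 0.30, adjusted p = 0.312), and its sign changed to -0.16 with transduction-list scaling.

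Genes for intraflagellar transport and the BBSome, which build and supply the cilia, passed for 17 of 34 tested members, all higher in Olfr73 (median 0.46). This count depended on both the libraries and the scaling. It was 2 without Olfr160 library 1, 2 without Olfr160 library 2, 4 without Olfr73 library 2, 7 without Olfr73 library 3 and 4 with only the 6 libraries compared. Calls over all tested genes also fell from 2834, to 1353 without Olfr160 library 1, 937 without Olfr160 library 2 and 1962 with only the 6 libraries. With transduction-list scaling 4 members passed, all higher in Olfr160 (median -0.035). That scaling gave 185 genes higher in Olfr73 and 3501 higher in Olfr160 over all 15708 tested genes. Dync2h1, the heavy chain of the motor that returns cargo along the cilium, read 346, 364 and 494 CPM in the Olfr73 group and 202, 192 and 241 CPM in the Olfr160 group (log2 fold change 0.92, SE 0.155, adjusted p = 0.00635). Bbs1, a subunit of the BBSome coat, read 62.96, 66.6 and 62.8 CPM in the Olfr73 group and 45.4, 39.2 and 46.6 CPM in the Olfr160 group (log2 fold change 0.55, SE 0.105, adjusted p = 0.00983). These 2 genes had groups that stood apart and were stable to leaving out libraries, but with transduction-list scaling Dync2h1 was at 0.42 (adjusted p = 0.0953) and Bbs1 at 0.034 (adjusted p = 0.905). Cfap126 and Tekt1, which belong to motile and axonemal cilia and were in the respiratory epithelium list, were also higher in Olfr73, although that list as a whole was not. Cfap126 read 113, 136 and 165 CPM in the Olfr73 group and 45.02, 42.2 and 53.5 CPM in the Olfr160 group (log2 fold change 1.56, SE 0.153, adjusted p = 0.00152) and passed with transduction-list scaling at 1.05. Tekt1 was at 0.45 (adjusted p = 0.0197), lost without Olfr73 library 2 (adjusted p = 0.0509), Olfr73 library 3 (0.0566), Olfr160 library 1 (0.0562) or Olfr160 library 2 (0.0837), and changed sign to -0.049 with transduction-list scaling.

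Presynaptic and neuromodulator genes were higher in Olfr73 for 11 of 27 tested members and higher in Olfr160 for 1 (median 0.69). With transduction-list scaling these counts were 5 and 1 (median 0.22), and the count higher in Olfr73 was 5 without Olfr73 library 2, 4 without Olfr73 library 3, 7 without Olfr160 library 1, 1 without Olfr160 library 2 and 3 with only the 6 libraries compared. Cacna1b, the presynaptic N-type calcium channel, read 63.98, 46.8 and 57.2 CPM in the Olfr73 group and 26.7, 24.5 and 29.04 CPM in the Olfr160 group (log2 fold change 1.06, SE 0.16, adjusted p = 0.00437). The groups did not overlap, and it was the 1 member stable to leaving out libraries, though it did not pass with transduction-list scaling (adjusted p = 0.0772). Drd2, the dopamine receptor that damps release from olfactory axons, read 29.7, 29.4 and 35.7 CPM in the Olfr73 group and 11.8, 15.3 and 20.7 CPM in the Olfr160 group (log2 fold change 0.99, adjusted p = 0.0119), a call lost without Olfr160 library 2 (adjusted p = 0.0561). Vamp2, a vesicle fusion protein, was at 0.85 (adjusted p = 0.0143) and was lost without the same library (0.0542).

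Of 28 tested channel genes for excitability, 10 were higher in Olfr73 and 2 were higher in Olfr160 (median 0.78), or 6 and 4 with transduction-list scaling (median 0.32). The count higher in Olfr73 was 5 without Olfr73 library 3, 5 without Olfr160 library 1 and 4 without Olfr160 library 2. Scn9a, a voltage-gated sodium channel of olfactory axons (chr2:66480080-66634962), read 1552, 1459 and 1593 CPM in the Olfr73 group and 618, 651 and 812 CPM in the Olfr160 group (log2 fold change 1.15, SE 0.13, adjusted p = 0.00234). The lowest Olfr73 library was well above the highest Olfr160 library. Kcna2, a delayed-rectifier potassium channel, read 29.9, 30.1 and 38.8 CPM in the Olfr73 group and 9.92, 14.2 and 14.8 CPM in the Olfr160 group (log2 fold change 1.34, SE 0.229, adjusted p = 0.00674). Kcnc4, another potassium channel, and Cacna1h, a T-type calcium channel, were at 0.88 (adjusted p = 0.0113) and 0.95 (adjusted p = 0.0102). These 4 channels were the stable ones, and all 4 passed with transduction-list scaling, at 0.66, 0.87, 0.41 and 0.48 in the order named.

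**Figure D4:**
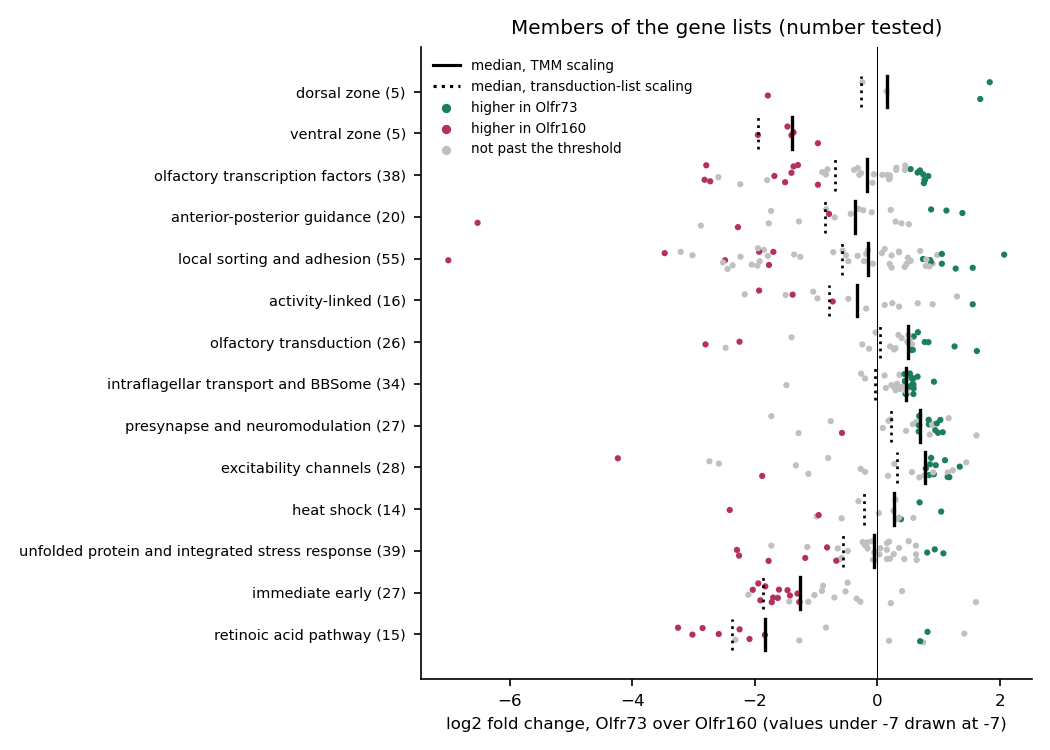
Log2 fold change, Olfr73 over Olfr160, of every tested member of 14 gene lists, with the number tested in brackets; solid bars are list medians with TMM scaling and dotted bars list medians with transduction-list scaling. The ventral zone, immediate early and retinoic acid medians stay below 0 under both scalings, while the dorsal zone, intraflagellar transport and heat shock medians change sign.

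Of 27 tested immediate early genes, 12 were higher in Olfr160, 0 were higher in Olfr73 and 15 did not pass (median -1.27). Fos, the best known of these stimulus-induced factors (chr12:85473890-85477273), read 923, 764 and 698 CPM in Olfr73 libraries 1, 2 and 3 and 2473, 1960 and 1457 CPM in Olfr160 libraries 1, 2 and 3. The 2 groups did not overlap (log2 fold change -1.30, SE 0.215, adjusted p = 0.00593), and the Olfr1507 mean of 1485 CPM was nearer to Olfr160. Arc, a synaptic immediate early gene, read 17, 11.1 and 7.32 CPM in the Olfr73 group and 63.4, 37.1 and 35.8 CPM in the Olfr160 group (log2 fold change -1.94, SE 0.339, adjusted p = 0.00741), with an Olfr1507 mean of 2.52 CPM. Dusp6, a phosphatase that ends ERK signalling, read 30.8, 32.6 and 17.6 CPM in the Olfr73 group and 78.97, 77.7 and 61.3 CPM in the Olfr160 group (log2 fold change -1.43, adjusted p = 0.00811). Fos, Arc, Dusp6, Egr1 and Ier3 were the 5 stable members. Without Olfr160 library 1 or without Olfr160 library 2, 5 members were called; with transduction-list scaling 14 were. In 4 of these 5, Arc, Dusp6, Egr1 and Ier3, as in the sustentacular and gland markers, the Olfr1507 level was below both other groups. The sustentacular and gland share moved with these genes between Olfr73 and Olfr160, at 0.549% to 1.05% against 3.26% to 6.87%, and its part was not tested.

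Heat shock and stress genes split by gene. Of 14 tested heat shock genes, 3 were higher in Olfr73 and 2 were higher in Olfr160 (median 0.28), or 1 and 4 with transduction-list scaling (median -0.22), and 3 passed in all without Olfr160 library 1 or without Olfr160 library 2. Hspa8, the constitutive cytosolic chaperone, read 7046, 9407 and 7233 CPM in the Olfr73 group and 3532, 3987 and 3993 CPM in the Olfr160 group (log2 fold change 1.04, SE 0.14, adjusted p = 0.00308) and passed with transduction-list scaling at 0.53. The groups stood apart, and the Olfr1507 mean was 11520 CPM. Hsp90ab1, its constitutive partner, read 1990, 2240 and 2036 CPM in the Olfr73 group and 1131, 1338 and 1417 CPM in the Olfr160 group (log2 fold change 0.69, adjusted p = 0.00624) but did not pass with transduction-list scaling (adjusted p = 0.175). Hspb8, a small heat shock protein, went the other way, at 29.4, 17.1 and 7.78 CPM in the Olfr73 group and 130.2, 101 and 57.2 CPM in the Olfr160 group (log2 fold change -2.41, adjusted p = 0.00961), with 1.34 CPM in Olfr1507. All 3 were stable to leaving out libraries.

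The unfolded protein and integrated stress response is a pathway that takes part in stabilising receptor choice. Of 39 tested genes of this response, 3 were higher in Olfr73 and 6 were higher in Olfr160 (median -0.051), where all tested genes gave 7.77% and 10.3%. With transduction-list scaling 15 passed, all higher in Olfr160, where all 15708 tested genes gave 185 higher in Olfr73 and 3501 higher in Olfr160. Ddit3, a transcription factor of the integrated stress response, read 66.05, 49.8 and 69.6 CPM in the Olfr73 group and 29.1, 28.9 and 29.9 CPM in the Olfr160 group (log2 fold change 1.08, SE 0.158, adjusted p = 0.00408). The Olfr160 libraries were nearly equal and all below the Olfr73 libraries, and the Olfr1507 mean of 63.9 CPM lay at the Olfr73 level. Slc7a5, an amino acid transporter of the same response, was at 0.81 (adjusted p = 0.00924). Neither passed with transduction-list scaling (adjusted p = 0.0799 and 0.165). Phgdh and Psat1, enzymes of serine synthesis, were higher in Olfr160 at -2.29 (adjusted p = 0.00458) and -2.26 (0.00964). The Phgdh mean was 36.5 CPM in Olfr160, 7.46 CPM in Olfr73 and 0.215 CPM in Olfr1507. The mean sustentacular and gland share had the same order, at 5.19%, 0.797% and 0.0625%, and its part was not tested. Pdia6, an endoplasmic reticulum disulfide isomerase, read 151, 176 and 159 CPM in the Olfr73 group and 312, 298 and 248 CPM in the Olfr160 group (log2 fold change -0.82, adjusted p = 0.00502), and Hyou1, an endoplasmic reticulum chaperone, was at -1.18 (adjusted p = 0.00867). These 6 genes were stable to leaving out libraries. Atf5, the factor whose translation follows receptor expression, did not pass (log2 fold change 0.63, adjusted p = 0.168).

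Of 15 tested genes of the retinoic acid pathway, 2 were higher in Olfr73 and 7 were higher in Olfr160 (median -1.84), and 5 passed without Olfr160 library 1 and 4 without Olfr160 library 2, all higher in Olfr160. Crabp1, a retinoic acid-binding protein, read 8.63, 3.93 and 4.66 CPM in the Olfr73 group and 53.5, 58.3 and 27.8 CPM in the Olfr160 group (log2 fold change -3.02, SE 0.407, adjusted p = 0.00308). The lowest Olfr160 library was above every Olfr73 library, and the Olfr1507 mean was 0.578 CPM. Crabp2, its relative, was at -2.59 (adjusted p = 0.00609). Aldh1a1 and Aldh1a7, dehydrogenases similar enough for reads to be assigned uncertainly between them, were at -2.09 (adjusted p = 0.00381) and -2.25 (0.0056). These 4 were stable to leaving out libraries. The receptors Rarg and Rxra were higher in Olfr73, at 0.70 (adjusted p = 0.0338) and 0.82 (0.0196), but Rarg was kept only without Olfr160 library 3, with adjusted p up to 0.113 without the others, and Rxra was lost without Olfr73 library 2 (0.0642), Olfr160 library 1 (0.0619) or Olfr160 library 2 (0.0582). Neither passed with transduction-list scaling. The sustentacular and gland share, 0.549% to 1.05% against 3.26% to 6.87%, and the basal share, 0.0221% to 0.0283% against 0.06% to 0.112%, moved with Crabp1, Crabp2 and the dehydrogenases, and their part was not tested.

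Genes that vary between mouse strains or travel with a targeted locus were listed as controls, because the labels give no strain. Of 10 tested, 2 were higher in Olfr73 and 5 were higher in Olfr160 (median -0.58), or 1 and 1 without Olfr160 library 2, and 3 of the 11 listed were also markers of other cell types. Glo1, a glyoxalase at a locus that varies in copy number between strains, read 329, 300.2 and 316 CPM in the Olfr73 group and 383, 491 and 475 CPM in the Olfr160 group (log2 fold change -0.51, adjusted p = 0.0207), against an Olfr1507 mean of 2022 CPM. The Glo1 call was lost without Olfr73 library 3 (adjusted p = 0.0594) or Olfr160 library 2 (0.0903). Ide, the insulin-degrading enzyme, was higher in Olfr73 at 0.85 (adjusted p = 0.011) and was stable to leaving out libraries. Nnt, a mitochondrial transhydrogenase lost in some strains, read 2.25, 1.73 and 1.02 CPM in the Olfr73 group and 6.55, 9.66 and 5.42 CPM in the Olfr160 group (log2 fold change -2.11, adjusted p = 0.0185), a call lost without Olfr160 library 1 (adjusted p = 0.0511) or library 2 (0.0916). Of 6 sex-linked genes tested, 0 were called by edgeR, 0 by DESeq2 and 0 by limma-voom, and 0 had an unadjusted p below 0.05 in edgeR.

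The genes with the largest differences toward Olfr73 were mostly low in both other groups. They were taken as the 12 with the largest fold among called genes that did not overlap, had a mean of at least 5 CPM and were neither unnamed gene models nor cell type markers. Serinc3, a membrane protein of the serine incorporator family (chr2:163623272-163645131), read 363, 467 and 330.4 CPM in Olfr73 libraries 1, 2 and 3 and 40.6, 8.65 and 7.96 CPM in Olfr160 libraries 1, 2 and 3. Olfr160 library 1 was above the other 2 of its group, and all 3 were far below the Olfr73 libraries (log2 fold change 4.35, SE 0.638, adjusted p = 0.00402). Its Olfr1507 mean was 20.02 ± 7.52 CPM (SD, n = 3), and its log2 fold change lay between 3.98 and 5.54 with each library left out in turn. Aspg, an asparaginase (chr12:112106679-112127559), read 89.2, 49.7 and 70.04 CPM in the Olfr73 group and 9.78, 5.498 and 4.45 CPM in the Olfr160 group (log2 fold change 3.41, SE 0.36, adjusted p = 0.00185), with 2.78 CPM in Olfr1507. Cyp2c23, a cytochrome P450 of fatty acid metabolism (chr19:44005022-44029208), read 22.9, 18.2 and 27.7 CPM in the Olfr73 group and 2.26, 2.35 and 4.22 CPM in the Olfr160 group (log2 fold change 2.96, SE 0.324, adjusted p = 0.00217). In both genes every Olfr73 library was several times higher than every Olfr160 library.

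Genes of several kinds made up the rest of these 12. Dusp26, a protein phosphatase, read 12.5, 34.5 and 16.9 CPM in the Olfr73 group and 2.07, 1.29 and 1.11 CPM in the Olfr160 group (log2 fold change 3.83, adjusted p = 0.00308). Prkd1, a protein kinase of the D family, read 16.8, 18.5 and 21.8 CPM in the Olfr73 group and 3.03, 4.04 and 2.401 CPM in the Olfr160 group (log2 fold change 2.59, SE 0.421, adjusted p = 0.00555), with similar levels in its 3 Olfr73 libraries in the plot of large differences. Kcnt1, a sodium-activated potassium channel, read 6.56, 2.34 and 11.04 CPM in the Olfr73 group and 0.578, 0.687 and 0.356 CPM in the Olfr160 group (log2 fold change 3.61, adjusted p = 0.00813), and its Olfr1507 libraries, at 1.35, 2.44 and 2.96 CPM, overlapped with Olfr73. Jakmip3, a microtubule-associated protein, read 29.02, 21.02 and 24.5 CPM in the Olfr73 group and 5.06, 3.64 and 8.72 CPM in the Olfr160 group (log2 fold change 2.10, adjusted p = 0.00444). Mmel1, a membrane metalloendopeptidase, read 5.55, 30.1 and 32.5 CPM in the Olfr73 group and 2.75, 0.889 and 2.54 CPM in the Olfr160 group (log2 fold change 3.46, adjusted p = 0.0101), with Olfr73 library 1 far below the other 2. Col27a1, a fibrillar collagen, read 12.4, 31.1 and 26.9 CPM in the Olfr73 group and 4.62, 2.22 and 2.001 CPM in the Olfr160 group (log2 fold change 2.99, adjusted p = 0.00635), again lowest in Olfr73 library 1. Plvap, a membrane protein best known from vessel walls, was at 2.09 (adjusted p = 0.00833). These 10 genes were stable to leaving out libraries and passed with transduction-list scaling. The remaining 2, the calcium-activated channel family member Ano4 (2.89) and the kainate receptor subunit Grik5 (2.14), did not pass with that scaling (adjusted p = 0.0503 and 0.0788). Ano4 was lost without Olfr73 library 2 (adjusted p = 0.113) or 3 (0.0745) and without Olfr160 library 1 (0.12) or 2 (0.133), and Grik5 without Olfr73 library 3 (0.0651) or any 1 of the Olfr160 libraries (0.0508, 0.0857 and 0.057).

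**Figure D5:**
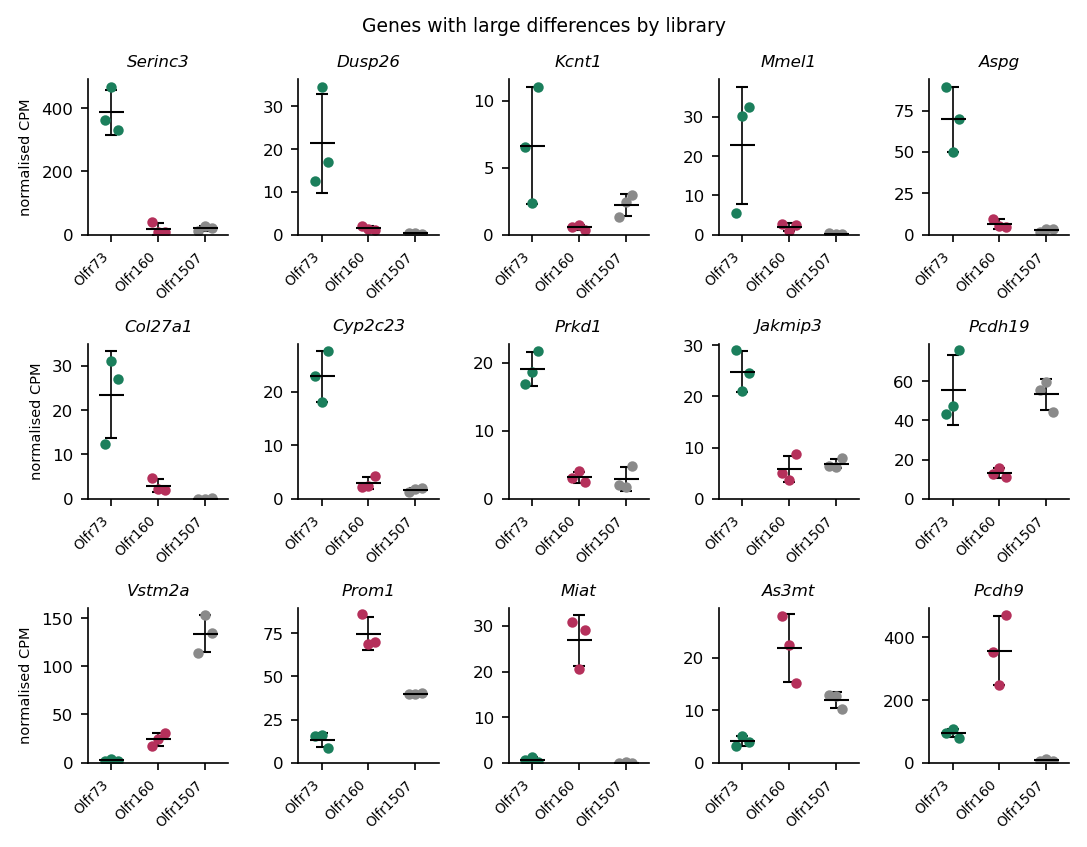
Normalised CPM of 15 genes with large differences in every library of the 3 groups; points are libraries, long lines are means and error bars are SD (n = 3). Serinc3, Aspg and Prkd1 are high in the Olfr73 libraries alone, Pcdh19 is high in Olfr73 and Olfr1507, Vstm2a is highest in Olfr1507, and Miat and Pcdh9 are high in the Olfr160 libraries alone.

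The largest differences toward Olfr160 were held in part by secretory and immune genes, and some of them by 1 or 2 libraries. Mmp13, a collagenase, had 0 counts in the 3 Olfr73 libraries and 1358 counts in the Olfr160 libraries, at 9.101, 46.2 and 1.16 CPM, which is at least 436-fold higher over the group with a floor of 3 counts. Dmbt1, a mucosal scavenger protein, read 0.044, 0.281 and 0.0466 CPM in the Olfr73 group and 1.64, 124 and 105 CPM in the Olfr160 group (log2 fold change -9.23, adjusted p = 0.00705), with Olfr160 library 1 far below the other 2. Obp2b, an odorant-binding protein of nasal glands, read 3.699, 0.0936 and 1.68 CPM in the Olfr73 group and 8.09, 136 and 16.2 CPM in the Olfr160 group (log2 fold change -4.87, adjusted p = 0.0279), and Bpifb5, a secreted Bpi-fold protein, read 6.12, 2.997 and 3.54 CPM in the Olfr73 group and 30.7, 173 and 52.03 CPM in the Olfr160 group (log2 fold change -4.33, adjusted p = 0.0182). Library 2 of Olfr160 was the highest in Mmp13, Dmbt1, Obp2b and Bpifb5. Without that library Obp2b (adjusted p = 0.173) and Bpifb5 (0.0879) did not pass, nor did they without Olfr73 library 2 (0.0567 and 0.0546) or Olfr73 library 3 (0.073 and 0.0527). Between the 2 groups these genes moved with the sustentacular and gland share, 0.549% to 1.05% against 3.26% to 6.87%. Within Olfr160 that share was 5.43%, 6.87% and 3.26% in libraries 1, 2 and 3. Mmp13 had the same order of libraries, whereas Dmbt1, Obp2b and Bpifb5 were lowest in library 1. The part of that share was not tested.

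Entpd1, a nucleotidase of immune and vessel cells, Serpinb1b, a protease inhibitor, Spib, an Ets factor, Fcgr3, an immunoglobulin receptor of myeloid cells, Snai2, a zinc-finger repressor of basal and mesenchymal cells, and Inafm2, a membrane protein, were at log2 fold changes of -5.01, -4.76, -4.06, -3.95, -4.32 and -4.22. None of these 6 was stable: all were lost without Olfr160 library 1, with adjusted p of 0.0552, 0.102, 0.0871, 0.1, 0.0798 and 0.0837 in the same order, and all were lost without Olfr160 library 2, at 0.0851, 0.0713, 0.0893, 0.158, 0.0915 and 0.105. Leaving out an Olfr73 library also ended these calls in some of the 6: Entpd1 (0.0577), Serpinb1b (0.0529), Fcgr3 (0.0712) and Snai2 (0.0625) without library 2, Spib (0.0556), Inafm2 (0.0647) and Fcgr3 (0.06) without library 1, and Inafm2 without library 3 (0.0548). Fcgr3 was lost without Olfr160 library 3 too (adjusted p = 0.0623). The immune marker share moved with Fcgr3, Entpd1 and Spib, at 0.00905% to 0.0122% against 0.0306% to 0.0904%, and its part was not tested.

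The other 2 of the 12 were Miat and Eno1b. Miat, a long noncoding RNA of neurons and other tissues (chr5:112213228-112229395), read 0.616, 1.17 and 0.1398 CPM in the Olfr73 group and 30.9, 20.5 and 29.1 CPM in the Olfr160 group (log2 fold change -5.37, SE 0.649, adjusted p = 0.00262). The Olfr160 libraries were similar to each other and all far above the Olfr73 libraries, and the Olfr1507 mean was 0.02201 CPM. Eno1b, a close copy of the glycolytic enzyme gene Eno1, read 33.9, 42.98 and 36.4 CPM in the Olfr73 group and 388, 936 and 777 CPM in the Olfr160 group (log2 fold change -4.21, adjusted p = 0.000787), with an Olfr1507 mean of 250.3 CPM. Its reads can be assigned to Eno1 as well, so that its level is uncertain.

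Genes higher in Olfr160 that were also present in the Olfr1507 libraries, where the sustentacular and gland share averaged 0.0625%, were picked out as the 8 with the largest fold whose Olfr1507 mean was at least 50% of the Olfr160 mean. Vstm2a, a secreted immunoglobulin protein (chr11:16257724-16427310), read 2.29, 3.75 and 2.14 CPM in Olfr73 libraries 1, 2 and 3 and 17.8, 24.2 and 30.5 CPM in Olfr160 libraries 1, 2 and 3. Each Olfr160 library was several times above each Olfr73 library (log2 fold change -3.15, SE 0.271, adjusted p = 0.00113), and the Olfr1507 libraries were higher again, at 134 ± 19.4 CPM (SD, n = 3). Prom1, a pentaspan protein of membrane protrusions (chr5:43993620-44102032), read 15.6, 15.8 and 8.71 CPM in the Olfr73 group and 85.95, 68.6 and 69.7 CPM in the Olfr160 group (log2 fold change -2.48, SE 0.222, adjusted p = 0.00127), with 39.9 ± 0.335 CPM (SD, n = 3) in Olfr1507. As3mt, an arsenic methyltransferase (chr19:46707458-46741099), read 3.21, 5.104 and 3.91 CPM in the Olfr73 group and 27.98, 22.5 and 15.2 CPM in the Olfr160 group (log2 fold change -2.42, SE 0.281, adjusted p = 0.00243), with 11.9 ± 1.46 CPM (SD, n = 3) in Olfr1507. In all 3 genes the Olfr73 level was below both other groups without overlap.

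Rec8, a cohesin subunit of meiosis, read 0.308, 0.936 and 0 CPM in the Olfr73 group and 7.22, 5.26 and 4.09 CPM in the Olfr160 group (log2 fold change -3.72, adjusted p = 0.0104), with 28.2 CPM in Olfr1507. Tirap, an adaptor of Toll-like receptors, read 1.805, 2.72 and 2.66 CPM in the Olfr73 group and 17.7, 13.2 and 9.34 CPM in the Olfr160 group (log2 fold change -2.48, SE 0.306, adjusted p = 0.0027), with 11.1 CPM in Olfr1507. Ccdc162, a coiled-coil protein, and Bcam, a laminin receptor, were at -2.95 (adjusted p = 0.0108) and -2.40 (0.00889). The 7 genes from Vstm2a to Bcam were stable to leaving out libraries and passed with transduction-list scaling. The eighth, Plekhg5, a guanine nucleotide exchange factor, was at -2.45 (adjusted p = 0.0234) and was lost without Olfr73 library 3 (0.0594), Olfr160 library 1 (0.0657) or Olfr160 library 2 (0.0763).

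Individual cell type markers did not all follow their lists. Sec14l3, an abundant transcript of supporting cells, read 2074, 1773 and 1220 CPM in the Olfr73 group and 10230, 8557 and 5846 CPM in the Olfr160 group (log2 fold change -2.28, SE 0.299, adjusted p = 0.00286), and 130.2 CPM in Olfr1507. Neurod1, a factor of neuronal precursors, read 24.2, 17.2 and 17.9 CPM in the Olfr73 group and 82.5, 125 and 51.3 CPM in the Olfr160 group (log2 fold change -2.13, adjusted p = 0.00389), and Mcm2, a replication helicase subunit, read 7.18, 7.304 and 7.32 CPM in the Olfr73 group and 34.96, 37.1 and 22.5 CPM in the Olfr160 group (log2 fold change -2.12, adjusted p = 0.00229). Dcx, the microtubule protein of immature neurons, went the opposite way at 242, 192 and 221 CPM in the Olfr73 group and 105, 133 and 149 CPM in the Olfr160 group (log2 fold change 0.76, adjusted p = 0.00891), while Dpysl3, from the same list, was higher in Olfr160 (log2 fold change -1.49, adjusted p = 0.00833). Over that immature list 3 of 17 tested genes were higher in Olfr73 and 7 were higher in Olfr160 (median -0.45), or 2 and 3 without Olfr73 library 3 and 1 and 1 without Olfr160 library 2, although its summed counts, unlike its summed TPM, were higher in Olfr73. Pou2f3, the factor that defines brush cells, was the 1 member of its list higher in Olfr73, at 24.8, 26.4 and 22.3 CPM in the Olfr73 group and 12.8, 12.6 and 12.6 CPM in the Olfr160 group (log2 fold change 0.96, adjusted p = 0.0058), with 60.6 CPM in Olfr1507. All 6 genes were stable to leaving out libraries, but Dcx (adjusted p = 0.121) and Pou2f3 (0.17) did not pass with transduction-list scaling.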

How the data were processed

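The members and the gene lists were chosen with earlier results of these data known. Low-input polyadenylated RNA libraries were aligned to mm10 with STAR 2.6.1 and quantified with RSEM 1.3.1, per the submitters' processing notes. The gene annotation behind them is not given in the sources used here. One deposited table holds expected counts per gene and library, which were rounded to whole numbers here (4.5% to 5.54% of the values in the 6 libraries compared were not whole). A second deposited table gives TPM values made by the authors with RSEM, and these served only in alternatives. Totals were 20394345 to 21278859 counts in the Olfr73 libraries and 17212807 to 22590535 in the Olfr160 libraries, and 14488 to 15067 and 15956 to 16804 genes had at least 10 counts. A total of 3 counts, the limit that a count of 0 allows, was 0.121 to 0.144 CPM per library. Intervals and floors cover counting error only.

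Genes were filtered with filterByExpr, scaled with TMM and tested with edgeR 4.0.16 (R 4.3.3; quasi-likelihood F test, robust fit) in one model of 3 group means over 9 libraries, which leaves 6 residual degrees of freedom. P-values were Benjamini-Hochberg adjusted over 16399 genes including the Olfr genes, with a threshold of 0.05. DESeq2 1.42.0 and limma 3.58.1 were alternatives, on log2(TPM + 1) and log2(TPM + 0.1) for TPM. Named genes were the 12 largest changes each way among called genes without overlap and with a mean of at least 5 CPM, the 8 largest higher in Olfr160 with Olfr1507 at least 50% of it, in each list up to 3 called members by lowest adjusted p, and a fixed set. The other list members named were chosen after their values were seen. Replicates were compared for duplicates: a chi-square over its degrees of freedom was 39.3 to 42.1 within Olfr73 and 64.8 to 95.1 within Olfr160, so that none were merged. Coordinates are from GENCODE M21 on mm10, and 98.7% of the table's transcript IDs were found there.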

Additional observations from a re-analysis of the deposited data

How the results depend on the processing

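The total of 2834 called genes lay between 937 and 2969 with 1 library left out, the count higher in Olfr73 between 318 and 1457 and the count higher in Olfr160 between 619 and 1579. With Olfr160 library 3 alone, an alternative chosen after seeing the data, 56 genes passed (17 higher in Olfr73, 39 higher in Olfr160). That 1 library is assumed to vary like the other groups. The size of the arm and the library itself cannot be told apart in this count. Of the 2834 genes, 2806 were also called by DESeq2, 2800 by limma-voom, 1837 with only the 6 libraries compared and 1798 with transduction-list scaling. Scaling to the transduction list gave 185 genes higher in Olfr73 and 3501 higher in Olfr160. The count higher in Olfr160 was 2537 with DESeq2, 2684 with limma-voom and 2825 on log2(TPM + 1), and the count higher in Olfr73 was 657 with the 6 libraries only. An adjusted p below 0.01 left 750 genes (260 and 490), and a minimum log2 change of 1 left 1591 (266 higher in Olfr73). Counts with RLE, library size, no filter, a filter of 5 CPM, Olfr genes left out and log2(TPM + 0.1) stayed within 1.5 times the main ones, in total and in each direction.

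Signs reversed in 7 of the 115 named genes. With transduction-list scaling these were Tekt1 (-0.049), Adcy3 (-0.16), Nqo1 (-0.27), Kirrel2 (-0.11) and Kirrel3 (-0.32). With Olfr160 library 3 alone, where each value rests on 1 library in that arm, they were Adcy3 (-0.070), Nqo1 (-0.41), Nrp1 (-0.022) and Kirrel3 (-0.40). With 1 library left out, values ran from -0.11 to 0.53 for Nqo1, -0.097 to 0.58 for Kirrel2, -0.18 to 0.47 for Kirrel3 and -0.67 to 0.15 for Efna5. The cause was not tested. The Olfr160 to Olfr73 ratio of the immature marker share was 0.859 in counts and 1.22 in TPM. The respiratory ratio of 4.04 ran from 2.6 (without Olfr160 replicate 1) to 4.83, and the red blood cell ratio of 10.6 from 6.17 (without Olfr160 replicate 2) to 22.7 (without Olfr73 replicate 1).

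Same-numbered libraries of the 2 groups deviated from their group means with correlations of 0.043, 0.0529 and 0.13 over 16399 genes. Olfr73 library 1 correlated best with Olfr160 library 2 (0.0731), whereas Olfr73 libraries 2 and 3 each correlated best with the same number. The remaining pairs with different numbers ran from -0.114 to -0.0103. Whether the numbers pair the libraries was not settled, and the main fit did not pair them. With the replicate block 2389 genes were called, 1020 higher in Olfr73 and 1369 higher in Olfr160. Genes near 3 counts per library cannot be ordered at this depth.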

Other observations

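The chromosomal neighbourhood of each tagged receptor was described after the calls were seen, as a measure of position that no list covered. Within 10 Mb of Olfr160 on chromosome 9, 35 of 122 tested genes were called, 23 higher in Olfr73 and 12 higher in Olfr160, which is 28.7% against 20.7% on the rest of that chromosome. Within 5 Mb the share was 31.0% (9 and 4 of 42 genes) against 21.3%, and within 20 Mb it was 22.7% (37 and 34 of 313 genes), also against 21.3%. Around Olfr73 on chromosome 2 the share was 19.8% within 10 Mb (6 and 10 of 81 genes) against 17% elsewhere, and 11.9% within 5 Mb (2 and 5 of 59 genes) against 17.5%, and within 20 Mb it was 20.8% (14 and 24 of 183 genes) against 16.6%. Neighbouring genes share regulation, and these shares are given without a test.

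Large single differences lay near the Olfr160 locus. Gm3896, a gene model 0.688 Mb from Olfr160, read 128, 70.3 and 91.8 CPM in the Olfr73 libraries and 7.37, 4.81 and 2.4 CPM in the Olfr160 libraries (edgeR log2 fold change 4.31, adjusted p = 0.00262), with an Olfr1507 mean of 0.859 CPM. Vwa5a, a von Willebrand domain protein 1.0 Mb away, read 2.25, 4.12 and 2.47 CPM against 39.6, 45.2 and 27.4 CPM (log2 fold change -3.67, adjusted p = 0.00152 in edgeR), with 0.558 CPM in Olfr1507. St3gal4, a sialyltransferase 2.59 Mb away, read 151, 150 and 197 CPM against 52, 58.6 and 60.7 CPM (log2 fold change 1.54, adjusted p = 0.00113 in edgeR), with 248 CPM in Olfr1507. Kcnj5, a G protein-gated potassium channel 5.36 Mb away, read 71.1, 66.9 and 41 CPM against 361, 265 and 176 CPM (log2 fold change -2.16, adjusted p = 0.0077 in edgeR), with 3.48 CPM in Olfr1507. These 4 genes were chosen after their values were seen, and none of their groups overlapped between Olfr73 and Olfr160. Vwa5a and Kcnj5 were highest in Olfr160 and lowest in Olfr1507. That is also the order of the sustentacular and gland share, whose part was not tested. Some genes named earlier also lie within 10 Mb of Olfr160 (chr9:37708964-37716250). They are Tirap (chr9:35184551-35200291), Hspa8 (chr9:40800984-40810087), Pou2f3 (chr9:43123939-43210369), Dscaml1 (chr9:45426628-45753712) and Kirrel3 (chr9:34485894-35036716), which did not pass. The part of the targeted locus in their levels was not tested.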
